A study of Saccharomyces cerevisiae BY4741 with 22 samples.

Results

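The libraries described here map where 18S rRNA ends in budding yeast cells that carry the mutant Pno1-KKKF, compared with cells that carry unaltered Pno1. They are the 18S libraries made from 25 °C cultures with a linker that holds a unique molecular identifier (UMI), a random tag on each ligated molecule. There were 6 such libraries of these strains, 3 per strain (biological replicates 6 to 8 of each), among 22 libraries in the series, of which 18 were of 18S rRNA. The series used 3'-RACE, in which a linker is ligated to the 3' end of rRNA and the stretch between an rRNA primer and the linker is amplified and sequenced.

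All strains derive from BY4741. Both Pno1 strains had their own Pno1 and Dim1 genes under a Gal promoter (Gal::Pno1 and Gal::Dim1), which is switched off in the glucose medium YPD. The mutant strain carried the plasmid copies TEF::Pno1-KKKF and Cyc1::Dim1-E85A, and its counterpart carried TEF::Pno1 and Cyc1::Dim1-E85A. Both therefore shared the Dim1-E85A mutant, and only Pno1 differed. Another strain, Gal::Rps14 and Gal::Dim1 with TEF::Rps14 and Cyc1::Dim1, had unaltered Dim1 and was sequenced in 2 UMI libraries, whose values are given beside the others. In all of these libraries rRNA came from purified 40S subunits, and cDNA was cleaned on AMPure XP beads. The proteins came from plasmids with promoters other than their own, which limits the strains as models of normal cells.

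The last cut of 18S rRNA is made in the cytoplasm. Its precursor, 20S rRNA, still carries the 5' part of the internal transcribed spacer ITS1, left after an earlier cut within ITS1 at site A2, and the endonuclease Nob1 removes it to give the mature 3' end. Pno1 binds pre-rRNA beside that cleavage site, and Dim1 dimethylates adjacent adenosines close to the 3' end of 18S rRNA.

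Position 0 is the last nucleotide of mature 18S rRNA. Negative positions are ends inside it (truncated), and positive positions are ends in ITS1 (extended). The deposited values are read depth per nucleotide, and an end was counted where the depth dropped and did not recover further 3'. Each Pno1 library held 2721297 to 3466795 ends between -50 and the end of ITS1, and the widest 95% Wilson interval of a share of these ends was 0.0137 percentage points to either side. Such intervals and floors (3 ends) cover counting error alone, since reads copied by PCR may come from 1 molecule. The highest depth lay at -17 in all of these libraries, so no end upstream of -17 can be seen. Because shares of ends were measured, more extended molecules and fewer mature molecules per cell cannot be told apart.

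One library stood apart from its group. Over the tested positions, the chi-square statistic per degree of freedom between replicates was 9.16 to 23.4 in Pno1-KKKF. In Pno1 it was 5.94 between replicates 7 and 8, but 74.2 and 79.9 between replicate 6 and these. Pno1 replicate 6 had the lowest truncated share of the 6 libraries. Results that move with it are therefore also given without it.

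As a check of the shared Dim1 mutant, skipped nucleotides around the Dim1 target adenosines were summed over positions -25 to -15. A skip is a dip in depth that recovers further 3'. The summed percentages skipped were 2.21%, 2.21% and 2.82% in Pno1-KKKF replicates 6 to 8, against 3.90%, 2.07% and 1.27% in Pno1 replicates 6 to 8, and 24.03% and 27.1% in Rps14 + Dim1. A read that skips neighbouring nucleotides counts at each, so the sum is not a share of molecules. The highest value at any nucleotide in Rps14 + Dim1 was 10.1% and 11.6%, at -21. The 2 strains labelled Dim1-E85A overlapped (log2 difference 0.14, SE 0.48, two-sided exact permutation p = 0.8), and both lay far below the strain with unaltered Dim1. The sign of the difference between the Pno1 strains turned without Pno1 replicate 8 (-0.25), and without Pno1 replicate 6 the difference was 0.56 (SE 0.37), with no overlap.

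Nearly all 18S rRNA in the UMI libraries ended at position 0, in either strain. The share there was 98.8%, 98.7% and 98.6% in Pno1-KKKF replicates 6 to 8, against 99.2%, 98.8% and 98.8% in Pno1 replicates 6 to 8. The other ends fell into 3 zones: a frequent group inside 18S rRNA led by -4 and -1, a rare group in the first 30 nt of ITS1, and a very rare group further into ITS1. The strains differed most clearly in the second of these zones, and there beyond +10.

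Truncated ends made up 1.09%, 1.15% and 1.36% of ends in Pno1-KKKF, against 0.678%, 1.09% and 1.13% in Pno1 and 0.781% and 0.992% in Rps14 + Dim1. The groups overlapped: 2 of the 3 Pno1-KKKF libraries lay above every Pno1 library. Their means were 1.20% ± 0.138 in Pno1-KKKF and 0.964% ± 0.249 in Pno1 (SD, n = 3 each), and the odds against position 0 had a ratio of 1.27 between the strains (log2 0.35, SE 0.26; two-sided exact permutation p = 0.2, or 0.267 when adjusted over 4 shares). With 3 libraries against 3 the smallest p this test allows is 0.1. Pno1 replicate 6 carried much of the difference, which was 0.11 without it. The rule for ends mattered too: where every drop of depth was counted as an end and rises were set to 0, so that skips count as truncated ends, the log2 difference was 0.17 (SE 0.16). All miscleaved ends within 50 nt, truncated and extended together, averaged 1.29% ± 0.141 in Pno1-KKKF and 1.03% ± 0.247 in Pno1 (SD, n = 3 each; log2 0.35, SE 0.24; exact permutation p = 0.2), and the difference was 0.13 without Pno1 replicate 6 and 0.18 under that other rule for ends.

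Within 18S rRNA the same ends led in both strains. The most frequent was -4, with 3873, 4058 and 5293 ends per 1000000 ends (ppm) in Pno1-KKKF against 2443, 4003 and 4416 in Pno1, and the groups overlapped (edgeR log2 difference 0.28, SE 0.21, adjusted p = 0.556). Next came -1, with 4103, 4508 and 4596 ppm in Pno1-KKKF against 2720, 3907 and 3873 in Pno1. At -1 every Pno1-KKKF library lay above every Pno1 library, yet the difference did not pass (edgeR log2 difference 0.33, SE 0.16, adjusted p = 0.232). Then followed -9, -7 and -3 in both strains, with edgeR log2 differences of 0.28, 0.33 and 0.38, and -2 and -10 had 0.61 and 0.40. None of these 5 passed the test either. Without Pno1 replicate 6 most of these differences shrank: to 0.07 at -4, 0.18 at -1, -0.0019 at -9, 0.07 at -7, 0.25 at -3, 0.41 at -2 and -0.02 at -10.

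The ratio of -4 to -1 ends, which does not depend on the other ends, was 0.944, 0.900 and 1.15 in Pno1-KKKF against 0.898, 1.02 and 1.14 in Pno1, with full overlap (exact permutation p = 1). Grouped by region, ends at -2 and -1 averaged 0.478% ± 0.0333 in Pno1-KKKF and 0.375% ± 0.0741 in Pno1 (SD, n = 3 each), without overlap (log2 0.37, SE 0.19; exact permutation p = 0.1, or 0.333 when adjusted over 10 regions). Without Pno1 replicate 6 this difference was 0.19. Ends at -6 to -3 averaged 0.515% ± 0.0804 in Pno1-KKKF and 0.419% ± 0.115 in Pno1, and ends at -10 to -7 averaged 0.191% ± 0.0383 and 0.156% ± 0.0601 in Pno1-KKKF and Pno1 (SD, n = 3 each). Their log2 differences of 0.33 and 0.36 were 0.08 and -0.02 without Pno1 replicate 6. Of the 15 positions tested from -17 to -1, 14 were higher in Pno1-KKKF, against 40 of all 51 positions tested. The median log2 difference of the 15 was 0.33 against 0.28 over the 51, and 0 of the 15 passed (0 also at an unadjusted p under 0.05). Position -13, one of these 15, had a log2 difference of 0.98 (SE 0.50). It lies between dips in depth at -14 and -12, where no end was counted in the 6 Pno1-KKKF and Pno1 libraries.

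**Figure D1:**
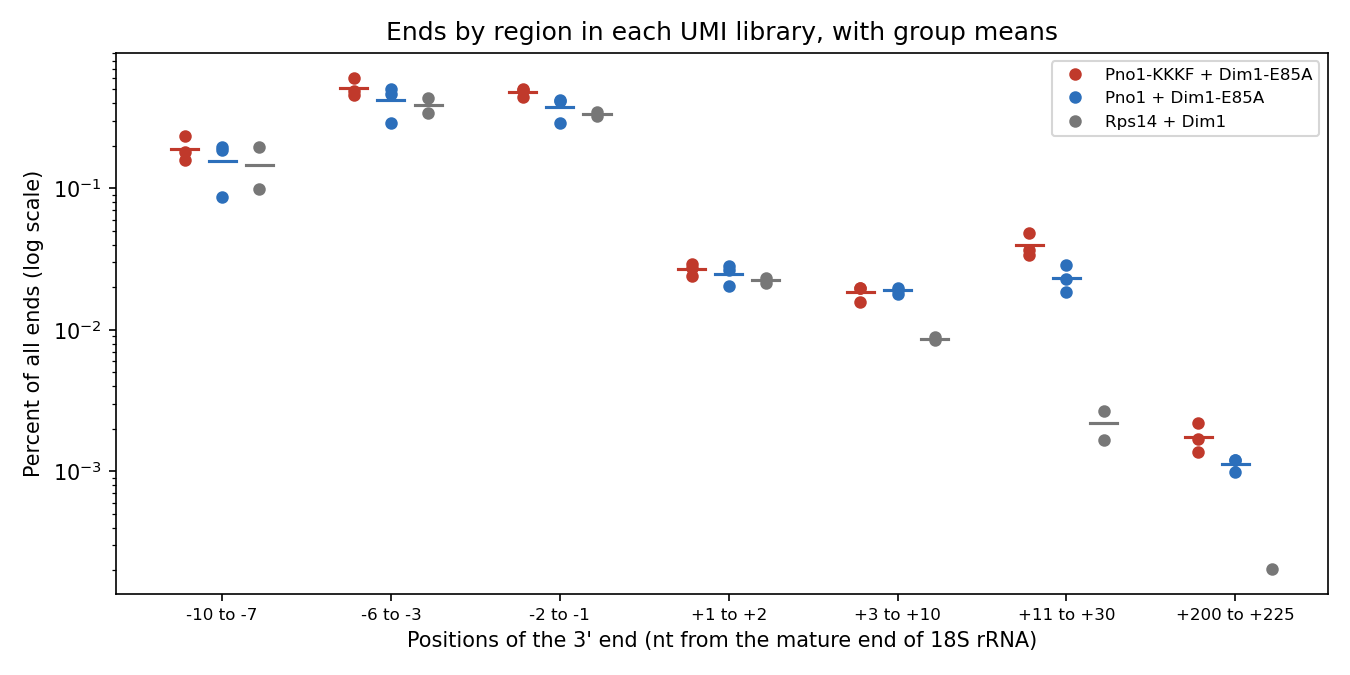
Percent of all ends (log axis) in 7 regions around the mature end of 18S rRNA, with 1 point per UMI library and a bar for the group mean (Pno1-KKKF and Pno1, n = 3 each; Rps14 + Dim1, n = 2; 1 Rps14 + Dim1 library with 0 ends in the last region is not drawn). The Pno1-KKKF points lie above all Pno1 points at -2 to -1, at +11 to +30 and in the region that starts at +200, and overlap them elsewhere.

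Extended ends within 50 nt made up 0.0745%, 0.0969% and 0.0862% of ends in Pno1-KKKF, against 0.0706%, 0.0667% and 0.0684% in Pno1. All 3 Pno1-KKKF libraries were above all 3 Pno1 libraries. The means were 0.0859% ± 0.0112 and 0.0686% ± 0.00198 in Pno1-KKKF and Pno1 (SD, n = 3 each), and 0.0333% ± 0.000763 in Rps14 + Dim1 (SD, n = 2). Relative to position 0 this was a 1.25-fold difference (log2 0.32, SE 0.11), and the exact permutation p was 0.1, the smallest possible, or 0.267 when adjusted over 4 shares. Leaving out single libraries gave 0.23 to 0.42.

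The difference in extended ends was uneven along ITS1. Ends at +1 and +2 averaged 0.0267% ± 0.00270 in Pno1-KKKF and 0.0249% ± 0.00403 in Pno1 (SD, n = 3 each; log2 difference 0.11, SE 0.17), and their sign turned without Pno1 replicate 6 (-0.03). Ends at +3 to +10 averaged 0.0184% ± 0.00239 in Pno1-KKKF and 0.0190% ± 0.000876 in Pno1 (SD, n = 3 each; log2 difference -0.05, SE 0.12), a sign that turned without Pno1-KKKF replicate 6 (0.06). Among single positions here, the edgeR log2 differences of +1 to +5 were 0.07, 0.24, -0.18, 0.17 and -0.15, and that of +10 was 0.15. Without Pno1 replicate 6, +1 had -0.03, +2 had 0.02, +5 had -0.05 and +10 had 0.38. Of the 10 positions from +1 to +10, 5 were higher and 5 lower in Pno1-KKKF, with a median of -0.06.

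Beyond +10 the strains separated. Ends at +11 to +30 made up 0.0340%, 0.0484% and 0.0365% in Pno1-KKKF replicates 6 to 8, against 0.0288%, 0.0184% and 0.0230% in Pno1 replicates 6 to 8. In Rps14 + Dim1 they made up 0.00268% and 0.00168%. The Pno1-KKKF libraries were all above the Pno1 libraries, and both strains were far above Rps14 + Dim1. The means were 0.0397% ± 0.00769 in Pno1-KKKF and 0.0234% ± 0.00525 in Pno1 (SD, n = 3 each), a 1.71-fold difference in odds (log2 0.77, SE 0.24; exact permutation p = 0.1, or 0.333 when adjusted over 10 regions). Without Pno1 replicate 6 it was 0.93. An edgeR fit to the 10 region counts gave 0.76 (SE 0.22, adjusted p = 0.038), the only region of the 10 to pass, and it passed without Pno1 replicate 6 but not without any other single library (adjusted p = 0.0783 to 0.202). 

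The same could be read within each library. The ratio of ends at +11 to +30 to ends at +1 to +10 was 0.863, 1.03 and 0.747 in Pno1-KKKF, against 0.719, 0.388 and 0.519 in Pno1 and 0.0899 and 0.0526 in Rps14 + Dim1. The mutant strain had 1.66 times the ratio of its counterpart (log2 0.73, SE 0.29; exact permutation p = 0.1), although the lowest Pno1-KKKF value and the highest Pno1 value were close. The mean length of an extension within 50 nt was 11.1, 12.5 and 10.8 nt in Pno1-KKKF against 11.2, 7.99 and 9.62 nt in Pno1, with overlap (exact permutation p = 0.3), and 3.56 and 3.02 nt in Rps14 + Dim1. The overlap came from Pno1 replicate 6 alone.

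**Figure D2:**
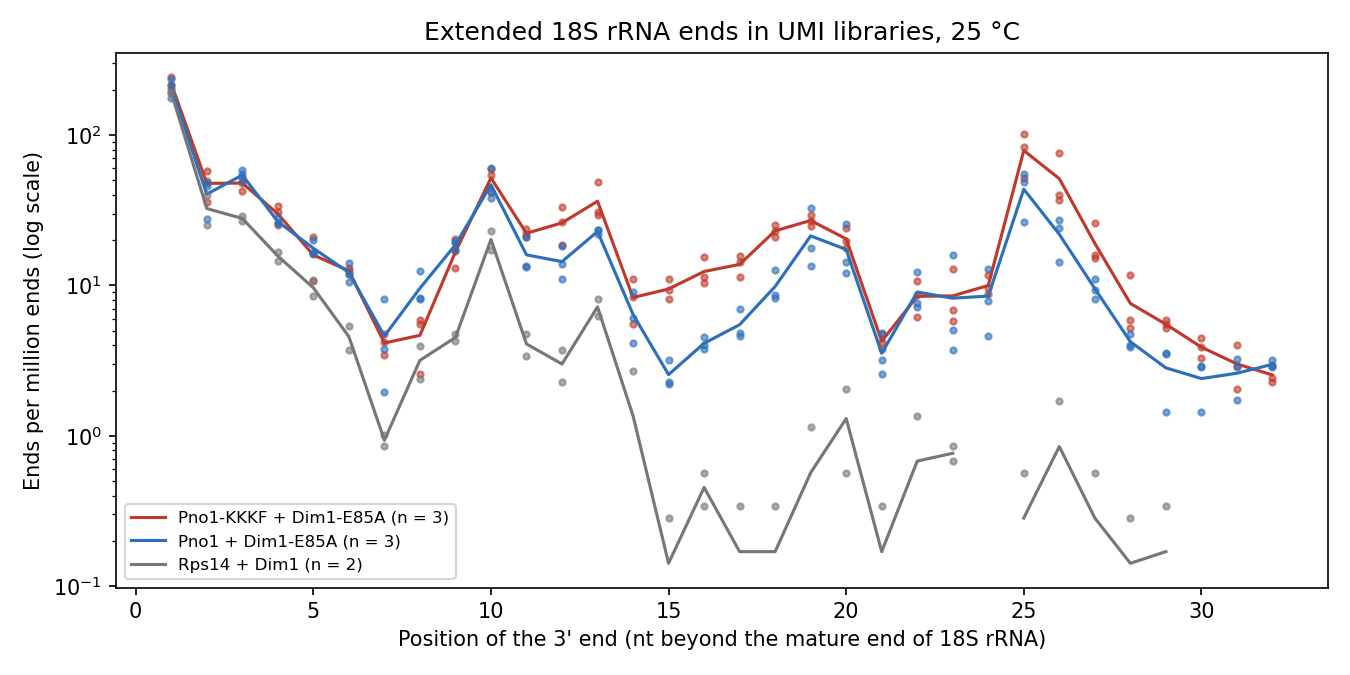
Ends per 1000000 ends (ppm, log axis) at each of the first 32 positions of ITS1 in UMI libraries, with 1 point per library, lines through the group means, and values of 0 not drawn. Pno1-KKKF and Pno1 run close together up to +10, apart from +8, and part at +15 to +18 and around +26, while Rps14 + Dim1 falls below 3 ppm beyond +13.

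At single-nucleotide resolution, 6 of 51 positions (11.8%) passed edgeR's quasi-likelihood test, all of them higher in Pno1-KKKF and all in ITS1, and 10 positions had an unadjusted p under 0.05. The largest fold was at +15, with 25, 30 and 27 ends in Pno1-KKKF against 7, 11 and 7 in Pno1 and 0 and 1 in Rps14 + Dim1. This was 9.47 ± 1.47 ppm in Pno1-KKKF and 2.55 ± 0.538 in Pno1 (SD, n = 3 each), a 3.64-fold difference (log2 1.86, SE 0.34, adjusted p = 0.00551). In Pno1 only replicate 7 held at least 10 ends here, so +15 met the filter of 10 ends in 3 libraries through Pno1-KKKF. In the edgeR fit without a filter +15 passed as well (log2 1.86, adjusted p = 0.0409). The neighbours of +15 behaved alike. Position +16 had 32, 42 and 33 ends in Pno1-KKKF against 14, 14 and 12 in Pno1 (log2 1.57, SE 0.29, adjusted p = 0.00551). Position +17 had 44, 43 and 33 ends in Pno1-KKKF against 15, 16 and 22 in Pno1 (log2 1.33, SE 0.28, adjusted p = 0.0076). Position +18 had 78, 57 and 67 ends in Pno1-KKKF against 39, 30 and 26 in Pno1 (log2 1.23, SE 0.25, adjusted p = 0.0076). In none of these 4 positions did the groups overlap, and all 4 passed in each fit that left out 1 of the 6 libraries.

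A second group lay further out. Position +26 had 115, 208 and 117 ends in Pno1-KKKF against 74, 50 and 86 in Pno1 (2.34-fold, log2 1.23, SE 0.36, adjusted p = 0.0497), and +27 had 47, 71 and 46 ends in Pno1-KKKF against 29, 28 and 35 in Pno1 (1.99-fold, log2 1.00, SE 0.28, adjusted p = 0.0481). The groups did not overlap, but Pno1-KKKF replicate 7 was well above the other libraries. Both calls were lost when any library other than Pno1-KKKF replicate 8 was left out, and the log2 difference at +26 was 0.83 without Pno1-KKKF replicate 7. Position +25, the most frequent end of this zone, had 160, 278 and 241 ends in Pno1-KKKF against 151, 92 and 175 in Pno1. The groups overlapped in ppm, and it did not pass (log2 0.86, SE 0.36, adjusted p = 0.195).

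Between these groups the strains were closer, though Pno1 replicate 6 weighed on this. The 6 positions from +19 to +24 had log2 differences of -0.10 to 0.35 with a median of 0.24, and 0 of them passed or were free of overlap. At each of them Pno1 replicate 6 was the highest of the 6 libraries in ppm, and without it only +22 would overlap. At +19 it had 32.7 ppm, against 13.6 and 17.8 in Pno1 replicates 7 and 8. The Pno1-KKKF libraries had 26.9, 25.0 and 29.2 ppm there. The 4 positions from +15 to +18 had a median of 1.45, and the 5 from +25 to +29 a median of 0.97. Over all 19 positions from +11 to +29, 18 were higher in Pno1-KKKF, against 40 of all 51 positions tested. The median of the 19 was 0.83 against 0.28 over the 51, and the strains did not overlap at 10 of the 19. Over all 51 positions, Pno1-KKKF lay above every Pno1 library at 13 (25.5%) and below every one at 1 (1.96%). That one, chosen after its value was seen, was +8, with 8, 16 and 16 ends in Pno1-KKKF against 25, 43 and 26 in Pno1 (log2 -1.05, SE 0.36, adjusted p = 0.0939).

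How many positions passed depended on scaling. With edgeR's TMM factors position 0 itself moved to a log2 difference of -0.33, and every position shifted down by about as much. Then 2 positions passed as higher in Pno1-KKKF (+15 at 1.53 and +16 at 1.23) and 1 as lower (+8 at -1.40), against 6 higher and 0 lower with total ends as library size. With DESeq2's default size factors, which moved position 0 to -0.32, 0 positions passed and 7 had an unadjusted p under 0.05. There +15 had 1.56 and +16 had 1.25. DESeq2 with total ends as size factors called 5 of the 6 positions, all but +27.

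**Figure D3:**
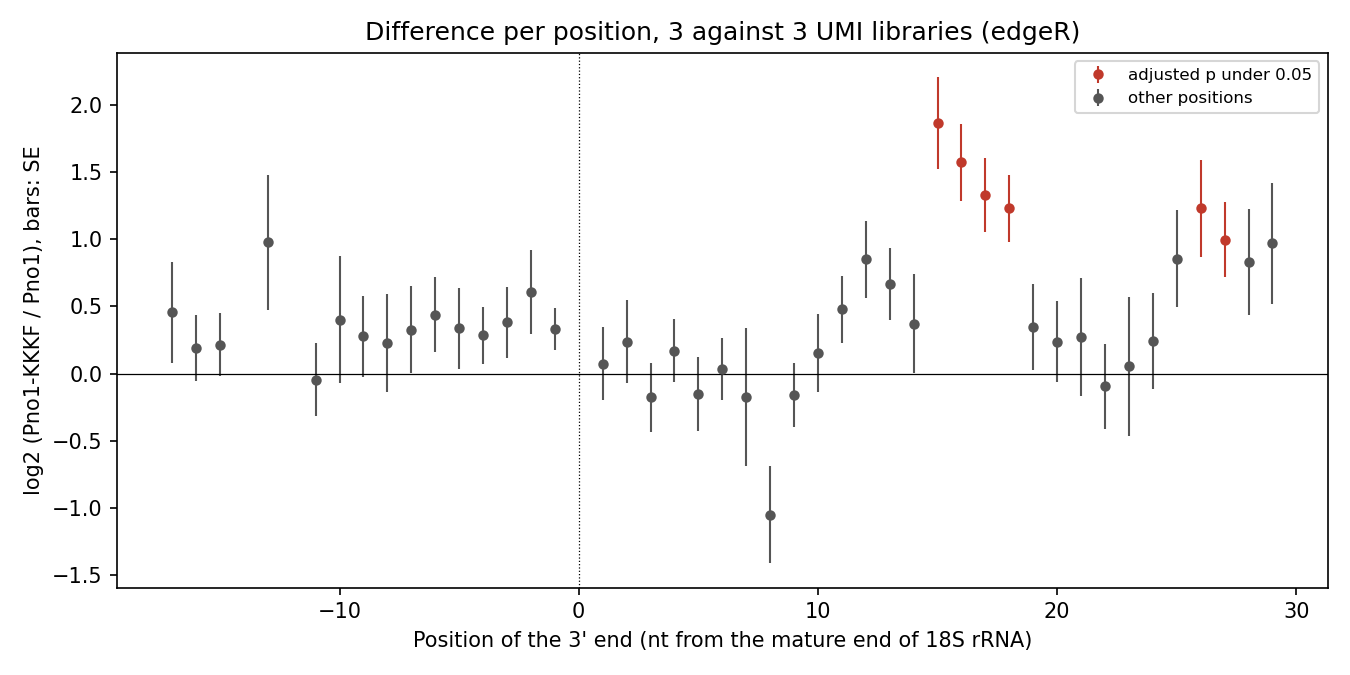
The edgeR log2 difference of Pno1-KKKF over Pno1 (vertical axis, bars are SE, n = 3 libraries each) at each tested position other than 0 from -17 to +29. The 6 positions that passed, in red, are +15 to +18, +26 and +27, and the positions between +19 and +24 lie between -0.10 and 0.35.

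Ends further into ITS1 were rare. Those beyond +50 made up 0.00638%, 0.0122% and 0.00822% in Pno1-KKKF, against 0.0126%, 0.00764% and 0.00952% in Pno1, with overlap (log2 -0.17, SE 0.34; exact permutation p = 0.7; -0.08 with every drop counted as an end). The sign turned without Pno1-KKKF replicate 6 (0.05) or Pno1 replicate 6 (0.02). The most frequent of them were +73 and +74 in both strains, with 65, 124 and 87 ends in Pno1-KKKF against 140, 111 and 111 in Pno1 at +73, and edgeR log2 differences of -0.22 (SE 0.32) at +73 and -0.39 (SE 0.32) at +74. The difference at +74 was -0.10 with every drop counted as an end, and without Pno1 replicate 6 the differences were -0.07 at +73 and -0.19 at +74. Position +74 lies 136 nt from the start of the reads, and the depth fell to 29 to 46 reads in Pno1-KKKF and 33 to 59 in Pno1 just beyond +74, below the depth further 3'. The sources used here do not give the read length, and its part in the ends at +73 and +74 was not tested. Position +72 had a log2 difference of -0.20 (SE 0.45), which turned to 0.22 without Pno1 replicate 6.

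A stretch of 26 nt that starts at +200 spans site A2. It held 52, 60 and 40 ends in Pno1-KKKF against 37, 34 and 38 in Pno1, and 6 and 0 in Rps14 + Dim1, where 0 of 3518330 ends allows a share of up to 8.53e-05%. The strains did not overlap, with a 1.53-fold difference in odds (log2 0.62, SE 0.22; exact permutation p = 0.1, or 0.333 when adjusted over 10 regions). The edgeR fit to region counts gave an adjusted p of 0.252. Within it, +208 was the most frequent end in Pno1-KKKF, with 19, 13 and 14 ends against 11, 17 and 10 in Pno1 (log2 0.43, SE 0.38), and +212, chosen after its values were seen and too rare to be tested, had 7, 13 and 9 ends in Pno1-KKKF against 1, 2 and 7 in Pno1. The ratio of ends between +50 and this stretch to ends within it was 2.77, 4.52 and 4.93 in Pno1-KKKF against 9.32, 6.71 and 6.82 in Pno1 (0.525-fold, exact permutation p = 0.1). All 3 Pno1-KKKF ratios were below all Pno1 ratios, on 40 to 60 and 34 to 38 A2 ends per library in Pno1-KKKF and Pno1. In every library most of the ends between +50 and this stretch lay at +72 to +74. The part of read length in the ends at +73 and +74 was not tested, so the ratio may carry it.

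The same pair of strains was also sequenced with a universal linker and gel purification, at 25 °C (2 libraries each) and at 30 °C (3 libraries each), where ends could be seen only to between +30 and +36. At +11 to +30 the UMI libraries held 340, 484 and 365 ppm in Pno1-KKKF against 288, 184 and 230 in Pno1. The 25 °C universal libraries held 111 and 98.5 in Pno1-KKKF against 91.8 and 92.9 in Pno1, and the 30 °C universal libraries held 299, 204 and 242 in Pno1-KKKF against 621, 453 and 581 in Pno1. Pno1-KKKF was thus above Pno1 in both 25 °C sets and below it at 30 °C, without overlap in each. The 25 °C universal set had only 2 libraries per strain. There, 11 of the 19 positions from +11 to +29 were higher in Pno1-KKKF and 8 lower, with a median log2 of 0.13. Of all 47 positions, 32 were higher, with a median log2 of 0.32, so +11 to +29 did not stand out in this set. EdgeR called 0 of the 47. The strain effects in UMI libraries (log2 0.77) and at 30 °C (log2 -1.15) differed by 1.92 (SE 0.32), in a test chosen after these values were seen. The two-sided exact permutation p was 0.005 over 400 arrangements, the smallest possible (adjusted p = 0.01 over 2 tests). This permutation exchanged strain labels within each protocol, so it tests for no strain effect in either protocol, not for equal effects. Groups that separate in opposite directions always reach its smallest value, so it adds nothing to that separation. The strain effect in UMI libraries differed from that at 25 °C with the universal linker (log2 0.20) by 0.57 (SE 0.26, exact permutation p = 0.217).

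**Figure D4:**
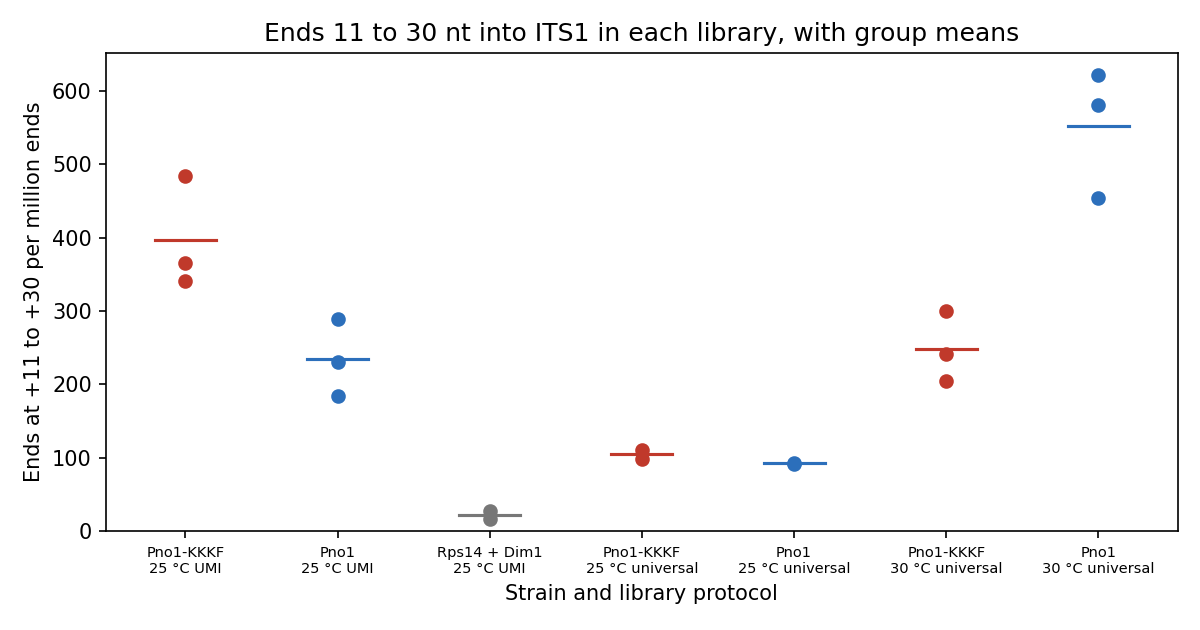
Ends at +11 to +30 (ppm) in each library, by strain and protocol, with bars for group means. Pno1-KKKF is above Pno1 in UMI libraries (340 to 484 against 184 to 288) and below it at 30 °C with the universal linker (204 to 299 against 453 to 621).

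Per position, edgeR's test of the difference between the UMI and the 30 °C strain effects called 14 of 47 positions (29.8%), all between +13 and +29 and all more positive in the UMI libraries. At 30 °C all 19 positions from +11 to +29 were lower in Pno1-KKKF (median log2 -1.46), against 33 of all 47. Of these 19, 13 passed as lower, which are all of the 13 calls at 30 °C (27.7% of 47). The difference between effects was largest at +21 (3.10, SE 0.61) and +26 (2.83, SE 0.49). At +21 it rests on few ends, with 1, 2 and 1 in the 30 °C Pno1-KKKF libraries against 12, 11 and 8 in Pno1. Against 25 °C with the universal linker edgeR called 0 of 47 positions, with 3 at an unadjusted p under 0.05. Over +1 to +10 the median strain effect was -0.06 in UMI libraries and 0.02 at 30 °C, and 0 of these 10 positions was called. At 25 °C with the universal linker the median of these 10 was 0.54, with 7 higher in Pno1-KKKF and 0 called. That was above its median of 0.13 over +11 to +29. The UMI and 30 °C libraries differ in temperature, linker, purification and cultures at once, and these cannot be told apart in that comparison. The 25 °C and 30 °C universal libraries share linker and purification but differ in temperature and cultures. Their strain effects at +11 to +30 were log2 0.20 and -1.15, and the difference between these 2 was not tested.

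In the summed shares no such difference was detected, with SEs of 0.39 to 0.84. The strain effect on truncated ends in UMI libraries differed from that at 30 °C by 0.0030 (SE 0.39, exact permutation p = 0.995) and from that at 25 °C with the universal linker by -0.57 (SE 0.65, exact permutation p = 0.667). For extended ends the differences were 0.32 (SE 0.48, exact permutation p = 0.53) and 0.11 (SE 0.84, exact permutation p = 0.867). All 4 adjusted p-values were 0.995.

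**Figure D5:**
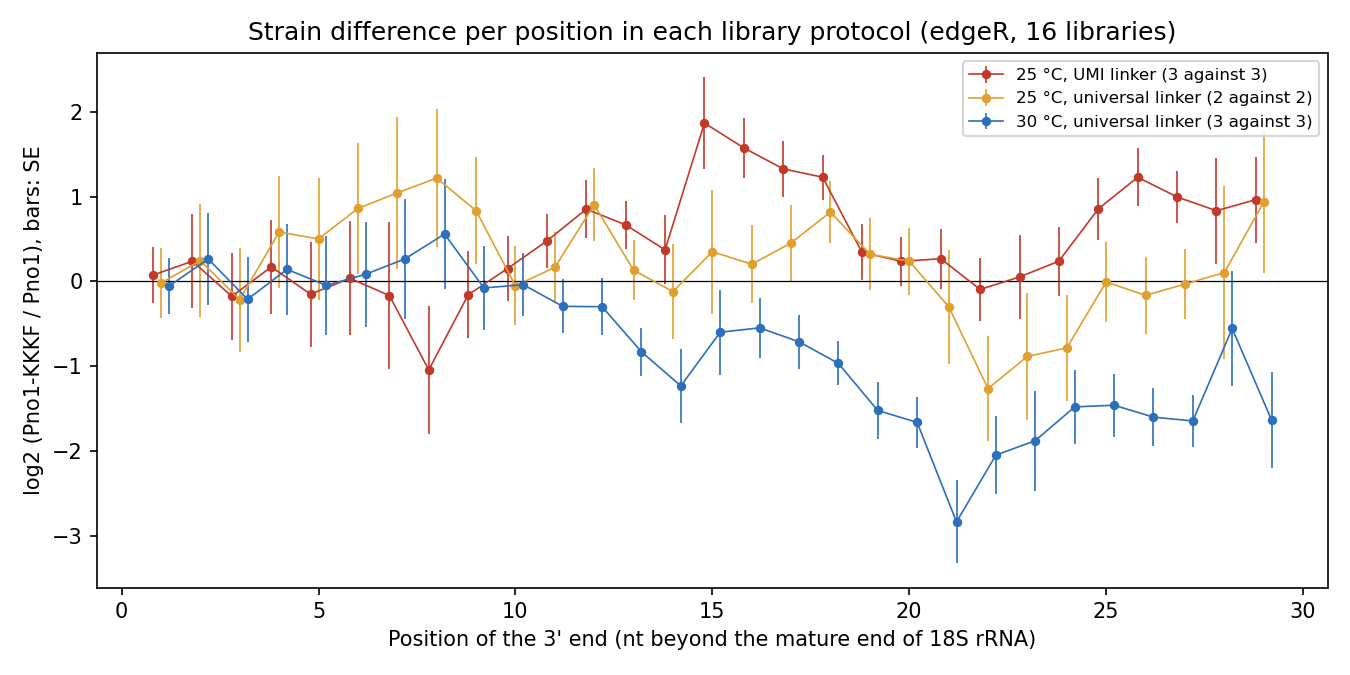
The edgeR log2 difference of Pno1-KKKF over Pno1 (bars are SE) at positions +1 to +29 in each of 3 protocols, from 1 fit to 16 libraries. Up to +10 each protocol has points on both sides of 0, and from +11 on all 19 points of the 30 °C libraries lie below 0, and 18 of 19 points of the UMI libraries lie above it.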

How the data were processed

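The authors deposited, per the file headers, the read depth at 6858 positions of the 35S precursor, as whole-number counts of reads over each nucleotide. UMI-tools 1.1.2, bedtools 2.17.0, SAMtools 1.1.0, Bowtie2 2.2.9, FastQC 0.11.4, cutadapt 3.5 and Trim Galore 0.6.1 appear in the submitters' processing notes. Settings, read length and any removal of duplicates by UMI were not given in the sources used here. Libraries were grouped by the titles and labels in GEO, which call them biological replicates; beyond that nothing describes separate cultures, so p-values may measure technical spread.

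Ends were taken from the counts as lasting drops of the running maximum of depth from the 3' side, and position 0 was placed by the RefSeq R64 gene table. Skips are dips below that maximum. Shares are of all ends from -50 to the end of ITS1. They were compared as log2 odds against position 0, with 0.5 added to both counts, by two-sided exact permutation of 20 arrangements. Positions with at least 10 ends in at least 3 libraries were tested with edgeR 4.0.16 (quasi-likelihood test, total ends as library size, Benjamini-Hochberg adjustment at 0.05, R 4.3.3). Differences between protocols used all 16 Pno1 libraries, and their permutation tests exchanged strain labels within each protocol. Alternatives included DESeq2 1.42.0, TMM, other filters and end rules, a replicate block and leaving out each library. Other steps used Python 3.11.15, numpy 2.4.6 and scipy 1.17.1. The steps were tested on simulated data.

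Positions named by rule are 0, -3 to +5, -10, +10, the 5 most frequent other ends within 50 nt and the 3 beyond +50 per strain, and those passing edgeR. The libraries, regions and positions were chosen with earlier results of these data known, so no pattern here is independent of them. Positions are relative to 18S rRNA because the files state no genome build, and no sequence is printed.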

Additional observations from a re-analysis of the deposited data

Results flagged for a closer look

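The strain effect differed between the UMI libraries and the 30 °C universal libraries at 14 of 47 tested positions (29.8%), by edgeR's interaction test at an adjusted p under 0.05. The log2 effect in UMI libraries minus that at 30 °C was 1.497 at +13, 2.47 at +15, 2.12 at +16, 2.04 at +17 and 2.195 at +18. It was 1.87 at +19, 1.90 at +20, 3.10 at +21, 1.95 at +22 and 1.72 at +24. It was 2.32 at +25, 2.83 at +26, 2.64 at +27 and 2.60 at +29. From +19 to +24 the strain effect itself was -0.10 to 0.34 in UMI libraries and -2.84 to -1.48 at 30 °C. At +21 the 30 °C Pno1-KKKF libraries held only 1, 2 and 1 ends. Leaving out any 1 of the 12 libraries, a check added after the data were seen, gave 12 to 16 such positions. No group of libraries here had 4 or more members in 1 protocol, so single libraries were not tested as outliers.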

How the results depend on the processing

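The permutation tests of 3 libraries against 3 cannot pass 0.05, so their p-values say nothing about stability. Positions further than +30 rest on few ends. Of 51 positions, 3 passed with TMM, 2 without a filter (of 119), 2 with at least 50 ends (of 31), 4 with negative drops set to 0 (of 66), 4 to 7 without single libraries and 0 with DESeq2's default size factors (7 at an unadjusted p under 0.05; 5 passed with DESeq2 on total ends). Both scalings move all positions down, by about 0.3. Same-numbered libraries did not deviate together (correlations -0.090, -0.347 and 0.091 over 51 positions); the replicate block left 4 calls, +15 to +18. The edgeR fit to regions called 1, and 0 to 1 without single libraries (added after seeing the data). The 2 calls at +26 and +27 were lost under most alternatives. The test of UMI against 25 °C universal effects called 0. Without single libraries, long extension ranged from -0.42 to 0.052 and the summed skips from -0.25 to 0.56. The difference between protocols ranged over -0.26 to 0.22 for truncated and -0.11 to 0.59 for extended ends against 30 °C, and over -1.16 to 0.021 and -0.61 to 0.83 against 25 °C universal; with negative drops set to 0 the first was -0.032. Among regions, leaving out 1 library gave -0.018 to 0.57 at -10 to -7, -0.026 to 0.21 at +1 to +2, -0.11 to 0.060 at +3 to +10, -0.42 to 0.10 at +31 to +50. Positions turned sign as follows: with TMM, -4 had -0.016, +1 -0.24, +2 -0.10, +4 -0.17 and +10 -0.21. With default DESeq2, -9 had -0.014, -4 -0.018, +1 -0.24, +2 -0.080, +4 -0.15 and +10 -0.19. Without single libraries -10 ranged from -0.016 to 0.91, -9 ranged from -0.0019 to 0.44, +1 ranged from -0.034 to 0.17, +5 ranged from -0.40 to 0.070, +72 ranged from -0.48 to 0.22, +73 ranged from -0.56 to 0.0084.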
